A study of Rattus norvegicus with 10 samples.

Results

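Interneuron subtype markers are the genes by which the inhibitory neurons of the hippocampus are sorted into classes, and 10 of them were followed here: Pvalb, Sst, Npy, Nos1, Cort, Lhx6, Vip, Cck, Calb2 and Htr3a. Each symbol was matched to the RefSeq RNA records in a table of mRNA read counts, and the record with the highest mean count was taken. All 10 symbols had exactly 1 record among the 32041 records of the table, and all 10 passed the filter on low counts, which kept 22431 records. Tissue with the CA3 and dentate gyrus fields came from the left hippocampus, labelled dorsal, of adult male Sprague-Dawley rats killed 3 months after surgery. In 5 rats a traumatic brain injury (TBI) was made by lateral fluid percussion at 3.32 atm over the left parietal cortex, and 5 sham rats had the same anaesthesia, craniectomy and surgery without the pressure pulse. The injured rats were not monitored by EEG, so whether any of them was epileptic at collection is not known. The study's methods name fewer sham rats for this assay than the labels do, without saying which, and all labelled rats were used.

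Hippocampal interneurons release GABA onto pyramidal cells, granule cells and each other, and most arise in the embryo from the medial or the caudal ganglionic eminence. The medial eminence gives the parvalbumin basket and chandelier cells, the somatostatin cells that contact distal dendrites, and many of the cells that make neuropeptide Y or nitric oxide. The caudal eminence gives the cells that make vasoactive intestinal peptide, calretinin or, in large basket cells, cholecystokinin. Somatostatin and neuropeptide Y cells of the dentate hilus are known for their vulnerability after seizures and head trauma. In a bulk tissue sample fewer cells of a type and less RNA per cell cannot be told apart.

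Promoter windows of 300 bases, running from 250 before to 50 after the start of the gene, were held for 7 of the 10 genes in the RefSeq sequences of the GRCr8 assembly, and no window was held for Cck, Calb2 or Htr3a. The windows were searched on both strands for the cAMP response element TGACGTCA, the site through which CREB drives somatostatin transcription, and for its 5-base core TGACG, which lies within it. The whole element was in 2 of the 7 windows, those of Sst and Nos1, and in 1.83% of the 33469 windows of all genes. The core was in 5 of the 7, being absent from the windows of Npy and Lhx6, and in 21.2% of all windows. The matches of Sst and Nos1, and that of Vip for comparison, follow so that these genes can be read beside their levels in the same rats. Capitals mark the element or, in Vip, its core.
Sst: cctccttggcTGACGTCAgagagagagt
Nos1: gacgccaagtTGACGTCAaagacagagg
Vip: atcaccactgTGACGtctttcgagg
The Sst stretch lies at chr11:90461538-90461565 on the plus strand, with the element starting 3 bases into the annotated transcript. The Nos1 stretch is chr12:44371829-44371856 on the minus strand, and the Vip stretch is chr1:44470373-44470397 on the plus strand. A match describes these letters and is not a measurement of binding.

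The libraries held 23425817 to 31671838 counts, and 14 to 4648 counts fell on a member in a library. Levels are CPM, counts scaled to library size with TMM factors. They are not corrected for transcript length, so levels are compared between rats and never between genes. Ribosomal RNA took 59.0% of counts in sham replicate 4 and 58.5% in sham replicate 5, against 12.5% to 26.2% in the other 8 rats. The summed level of 4 dentate granule cell genes was 54.8 CPM in sham replicate 1 and 167 to 190 CPM in the other sham rats, and ranged from 75.0 to 185 CPM in the TBI rats. The summed level of 4 genes of CA1, a field that the dissection was meant to leave out, was 57.0 to 123 CPM in sham rats and 46.7 to 410.5 CPM in TBI rats. Ribosomal RNA share was tried as a covariate, with values given where they move a result. The part of the granule cell and CA1 genes in the results that follow was not tested.

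No member passed an adjusted p of 0.05 between TBI and sham rats in edgeR's quasi-likelihood test, and 0% of all records did. Of the 10 members 8 were lower and 2 higher in TBI, with a median log2 change of -0.16 beside -0.01 over all records. At an unadjusted p under 0.05 there were 2 lower members, Lhx6 and Htr3a, and 0 higher. Among all records 7.89% were past this threshold, with 3.0% lower and 4.89% higher in TBI. The 2 of 10 thus stand beside 3.0% of all records, a count too small to read further. The ranges of the groups overlapped for each of the 10 members, whereas 0.923% of all records had groups that did not overlap.

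**Figure D1:**
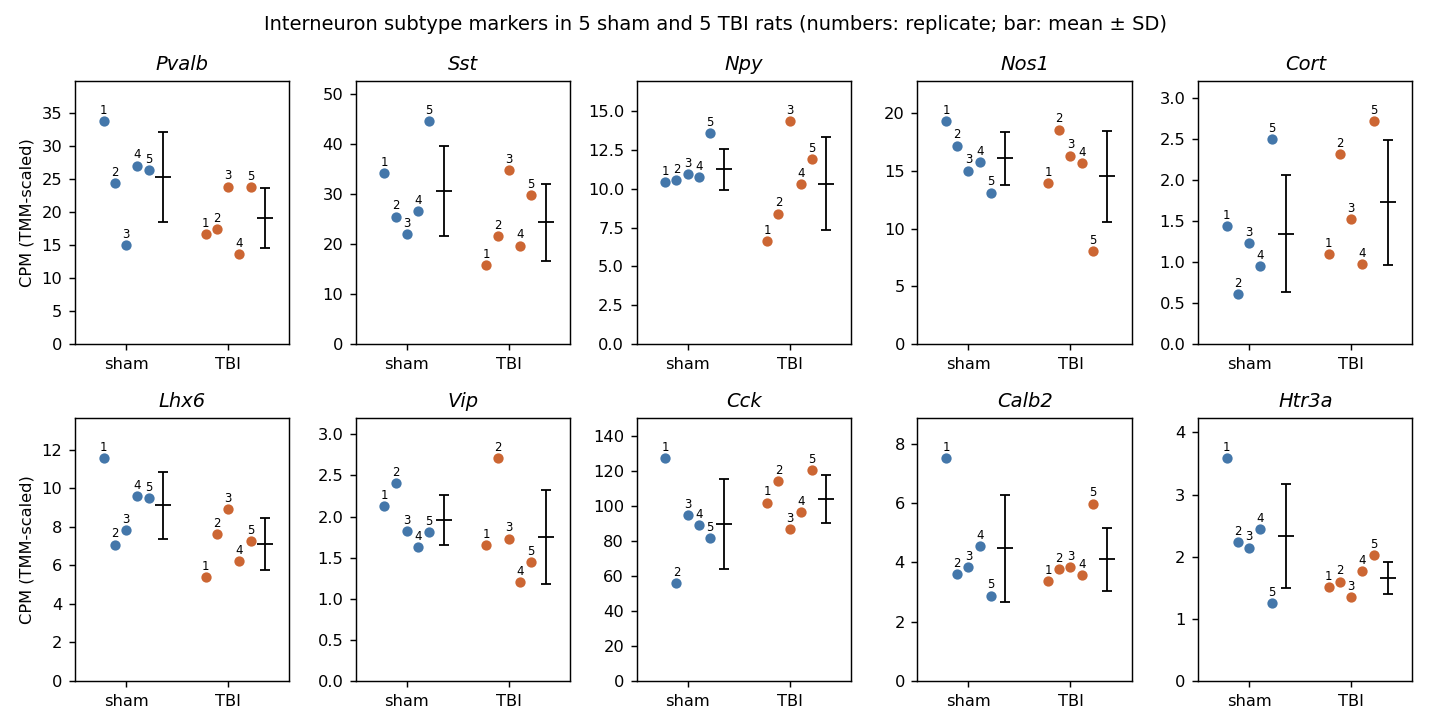
Level of each marker in CPM (vertical axes from 0, different for each gene) in the 5 sham and 5 TBI rats, with replicate numbers beside the points and the mean ± SD to their right. The TBI points of Lhx6, Pvalb and Htr3a all lie below the sham mean, but within each panel the groups overlap.

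Among markers of the medial eminence, Lhx6 (NM_001107837.1) is the transcription factor that its interneurons keep from birth to adulthood. Lhx6 was at 11.6, 7.08, 7.83, 9.59 and 9.50 CPM in sham replicates 1 to 5, and at 5.39, 7.64, 8.92, 6.23 and 7.28 CPM in TBI replicates 1 to 5. TBI replicates 1 and 4 were below every sham rat, and the other 3 injured rats lay within the sham range. Sham rats averaged 9.11 ± 1.75 and injured rats 7.09 ± 1.35 CPM (SD, n = 5 each). TBI over sham, the log2 change was -0.36 (SE 0.145, 95% interval -0.66 to -0.05), with an edgeR p = 0.0242, an adjusted p = 0.574 and, from the two-sided exact permutation of rats between groups, p = 0.0873. Dropping sham replicate 1 gave an edgeR p of 0.0941, dropping TBI replicate 1 gave 0.0686 and dropping TBI replicate 4 gave 0.0576. In the other direction, dropping TBI replicate 3 gave 0.00577 and dropping sham replicate 2 gave 0.00732. The edgeR p was 0.0941 with the ribosomal RNA share as a covariate.

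Pvalb (NM_022499.2) encodes parvalbumin, the calcium buffer of fast-spiking basket and chandelier cells. Pvalb was at 33.8, 24.4, 15.0, 27.1 and 26.4 CPM in sham replicates 1 to 5, and at 16.7, 17.4, 23.9, 13.7 and 23.8 CPM in TBI replicates 1 to 5. All 5 TBI rats were below the sham mean, but sham replicate 3, at 15.0 CPM, was below 4 of them. Its averages were 25.3 ± 6.76 CPM in sham and 19.1 ± 4.54 CPM in injured rats (SD, n = 5 each). The difference on the log2 scale was -0.40 (SE 0.218, 95% interval -0.89 to 0.08, edgeR p = 0.0919, adjusted p = 0.699, exact permutation p = 0.159). Leaving out sham replicate 3 made it -0.55, with an unadjusted edgeR p of 0.00346, and leaving out sham replicate 1 made it -0.27, with one of 0.215.

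Sst (NM_012659.1) encodes somatostatin, the peptide of hilar and oriens cells that inhibit distal dendrites. Sst was at 34.2, 25.5, 22.1, 26.6 and 44.6 CPM in sham replicates 1 to 5, and at 15.9, 21.6, 34.8, 19.7 and 29.8 CPM in TBI replicates 1 to 5. TBI replicates 1, 2 and 4 were below every sham rat, whereas TBI replicates 3 and 5 were as high as most of them. Sham rats averaged 30.6 ± 8.99 CPM and injured rats 24.4 ± 7.72 CPM (SD, n = 5 each), which made a log2 change of -0.32 (SE 0.255, 95% interval -0.90 to 0.25, edgeR p = 0.235, adjusted p = 0.809, exact permutation p = 0.246). The highest value, that of sham replicate 5, came from a library rich in ribosomal RNA, and without that rat the log2 change was -0.16. Over all choices of 1 rat to drop it ran from -0.49 to -0.16. Sst had 392 to 1185 counts in a library.

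Npy (NM_012614.2) encodes neuropeptide Y, which is made by many somatostatin cells and by neurogliaform and ivy cells. Npy was at 10.4, 10.6, 10.9, 10.7 and 13.6 CPM in sham replicates 1 to 5, and at 6.64, 8.41, 14.4, 10.3 and 11.9 CPM in TBI replicates 1 to 5. The sham rats other than replicate 5 were close together, and the TBI rats spread to both sides of them. The coefficient of variation of Npy was 11.6% in sham rats and 29.0% in TBI rats. A difference in this spread was not tested. With averages of 11.2 ± 1.31 CPM in sham and 10.3 ± 3.00 CPM in injured rats (SD, n = 5 each), Npy had a log2 difference of -0.12 (SE 0.167, 95% interval -0.47 to 0.24, edgeR p = 0.493, adjusted p = 0.902, exact permutation p = 0.476). Dropping TBI replicate 1 gave 0.0058 and dropping TBI replicate 3 gave -0.26.

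Nos1 (NM_052799.1) encodes the neuronal nitric oxide synthase of ivy, neurogliaform and long-range projecting cells. Nos1 was at 19.3, 17.2, 15.0, 15.8 and 13.1 CPM in sham replicates 1 to 5, and at 13.9, 18.6, 16.3, 15.7 and 8.08 CPM in TBI replicates 1 to 5. TBI replicate 5 was the lowest of the 10 rats, and the other 4 injured rats were within the sham range. Averages were 16.1 ± 2.32 CPM in sham and 14.5 ± 3.96 CPM in injured rats (SD, n = 5 each), and the log2 difference was -0.15 (SE 0.183, 95% interval -0.55 to 0.24, edgeR p = 0.414, adjusted p = 0.881, exact permutation p = 0.540). Without TBI replicate 5 it was -0.0015, and without TBI replicate 2 it was -0.26.

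Cort (NM_012835.1) encodes cortistatin, a peptide related to somatostatin that binds the same receptors. Cort was at 1.44, 0.611, 1.24, 0.952 and 2.50 CPM in sham replicates 1 to 5, and at 1.10, 2.32, 1.53, 0.980 and 2.72 CPM in TBI replicates 1 to 5. Both groups held high and low rats, so that Cort had the largest coefficient of variation of the 10 members in each group, 53.1% in sham and 44.0% in TBI. Cort had 14 to 105 counts in a library, and for 14 counts sampling alone gives a coefficient of variation of 26.7%. From 1.35 ± 0.715 CPM in sham and 1.73 ± 0.761 CPM in injured rats (SD, n = 5 each), the log2 difference of Cort came to 0.41 (SE 0.359, 95% interval -0.36 to 1.19, edgeR p = 0.269, adjusted p = 0.827, exact permutation p = 0.397). Without TBI replicate 5 it was 0.19, and without sham replicate 5 it was 0.69, with an unadjusted edgeR p of 0.0515.

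Among the remaining markers Htr3a (NM_024394.2) encodes the ion channel subunit for serotonin that marks interneurons of the caudal eminence. Htr3a was at 3.59, 2.23, 2.14, 2.45 and 1.25 CPM in sham replicates 1 to 5, and at 1.51, 1.6, 1.35, 1.77 and 2.02 CPM in TBI replicates 1 to 5. All TBI values were below the sham mean but none was below sham replicate 5, the lowest of the 10 rats. Sham rats averaged 2.33 ± 0.839 CPM and injured rats 1.65 ± 0.257 CPM (SD, n = 5 each). Htr3a thus had a log2 difference of -0.53 (SE 0.211, 95% interval -0.97 to -0.09, edgeR p = 0.0215, adjusted p = 0.555, exact permutation p = 0.135). It was -0.31 when sham replicate 1 was dropped, with an unadjusted edgeR p of 0.135, and -0.47 when TBI replicate 3 was dropped, with one of 0.0504. Without sham replicate 5 it was -0.67, with an unadjusted edgeR p of 0.00228. With ribosomal RNA share as a covariate it was -0.78, with one of 0.00494. Htr3a had 20 to 115 counts in a library.

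Cck (NM_012829.2) encodes cholecystokinin, which marks a class of basket cells but is also transcribed by pyramidal cells. Cck was at 127, 55.8, 94.6, 89.2 and 81.6 CPM in sham replicates 1 to 5, and at 102, 114, 86.8, 96.6 and 120.4 CPM in TBI replicates 1 to 5. The TBI values all lay between the lowest and the highest sham rat. Cck averaged 89.7 ± 25.8 CPM in sham and 104 ± 13.5 CPM in injured rats (SD, n = 5 each), a log2 difference of 0.21 (SE 0.181, 95% interval -0.18 to 0.61, edgeR p = 0.265, adjusted p = 0.823, exact permutation p = 0.278). Dropping sham replicate 1, the highest, gave 0.37 with an unadjusted edgeR p of 0.0177, and dropping sham replicate 2, the lowest, gave 0.08 with one of 0.530. The summed CA1 genes, which mark pyramidal cells, were at 245, 410.5, 117, 46.7 and 175 CPM in TBI replicates 1 to 5, and their part in the level of Cck was not tested.

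Vip (NM_053991.1) and Calb2 (NM_053988.1) mark cells that mainly inhibit other interneurons, and Calb2, which encodes calretinin, is also found in immature granule cells. Vip was at 2.12, 2.41, 1.82, 1.63 and 1.81 CPM in sham replicates 1 to 5, and at 1.65, 2.71, 1.73, 1.20 and 1.45 CPM in TBI replicates 1 to 5. TBI replicate 2 was the highest and TBI replicate 4 the lowest of the 10 rats. Calb2 was at 7.52, 3.59, 3.83, 4.55 and 2.87 CPM in sham replicates 1 to 5, and at 3.36, 3.78, 3.84, 3.57 and 5.98 CPM in TBI replicates 1 to 5. Sham replicate 1 and TBI replicate 5, the rats with the highest Calb2, were also those with the lowest summed granule cell genes, at 54.8 and 75.0 CPM. Between groups Vip differed by -0.18 on the log2 scale (SE 0.203, 95% interval -0.60 to 0.25, edgeR adjusted p = 0.875). This was -0.39 without TBI replicate 2, with an unadjusted edgeR p of 0.0456, -0.07 without TBI replicate 4 and -0.35 with the ribosomal RNA covariate. Calb2 differed by -0.14 (SE 0.239, 95% interval -0.66 to 0.37, edgeR adjusted p = 0.919), by 0.15 without sham replicate 1, by -0.32 without TBI replicate 5 and by -0.42 with the ribosomal RNA covariate.

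**Figure D2:**
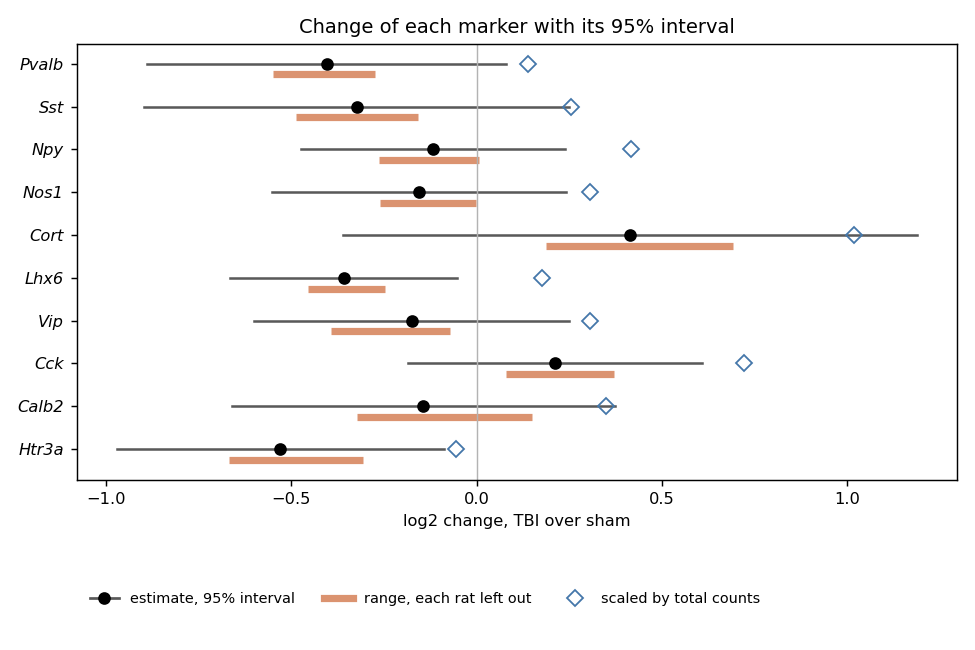
Log2 change of each marker, TBI over sham (horizontal axis), with its 95% interval, the range when single rats were dropped, and the value when libraries were scaled by total counts. The intervals of Lhx6 and Htr3a exclude 0, and scaling by total counts shifts each marker to the right.

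The direction of these changes is relative to the bulk of the records. When libraries were scaled by total counts, which count ribosomal RNA, the median log2 change of all records became 0.50, and 9 of the 10 members were above 0. Relative to that median 8 members were lower and 2 higher, with -0.32 for Lhx6, -0.55 for Htr3a, -0.36 for Pvalb, -0.24 for Sst, 0.22 for Cck and 0.52 for Cort. Subtracting the median recentres the same counts, much as TMM does, so this split is not a separate check on the direction.

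A ratio of 2 transcripts within a library does not depend on scaling. Gad1 and Gad2 encode the enzymes that make GABA in all interneurons, and their sum was set as the denominator with its earlier result in these rats known: Gad1 had a log2 change of -0.46 and Gad2 of -0.46. Relative to this sum the log2 ratio was higher in TBI for 10 of the 10 members. It was higher by 0.10 for Lhx6, 0.07 for Pvalb, 0.13 for Sst, 0.30 for Npy and 0.03 for Htr3a. A denominator already known to be lower in TBI raises every ratio, and of the members only Htr3a had a log2 change below -0.46. The count of 10 was thus nearly set by the choice of denominator and cannot show a direction for the members. Of 13 ratios tested 1 had an unadjusted p under 0.05, that of Cck to the sum, which was higher by 0.72 (two-sided exact permutation p = 0.0238). Cck itself had a log2 change of 0.21, so much of this difference came from the lower denominator. Within the somatostatin family the log2 ratio of Cort to Sst was -4.62 ± 0.511 in sham and -3.87 ± 0.550 in injured rats (SD, n = 5 each, exact permutation p = 0.0714). The ratios of Npy and of Pvalb to Sst differed by 0.18 and -0.05 (two-sided exact permutation p = 0.254 and 0.786).

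The markers were read beside 32 other genes of interneurons, among them GABA enzymes and transporters, transcription factors of the eminences, and channels and receptors of particular classes. Records were tested for 30 of them, and no record was found for Dlx6 or Ndnf under these symbols. Of the 30, 24 were lower and 6 higher in TBI, 10 were lower at an unadjusted p under 0.05 (3.0% of all records were) and 0 higher, and 0 passed the adjusted threshold. Their median log2 change was -0.255, and -0.125 without sham replicate 1. With total count scaling 0 were lower and 3 higher at that threshold, while 16.9% of all records were past it, nearly all higher. The median of the list was then 0.27 beside 0.50 over all records. The 4 with the smallest p were Gad2, Gad1, Reln and Nxph1. The study's own list of downregulated genes after TBI holds Gad2, Gad1 and Reln, from an edgeR analysis whose methods name fewer sham rats. Nxph1, a synaptic ligand of neurexins found in interneurons, averaged 9.89 ± 1.56 in sham and 7.61 ± 0.851 CPM in injured rats (SD, n = 5 each), differing by -0.38 on the log2 scale (SE 0.117, edgeR adjusted p = 0.485). Reln, the secreted protein of Cajal-Retzius cells and many interneurons, differed by -0.59 (SE 0.136), and its groups did not overlap. The MGE regulator Nkx2-1 had a log2 change of -0.59 at under 1 CPM, while Sox6 and Satb1, which act after Lhx6 in the same lineage, had log2 changes of 0.26 and 0.07, neither past an unadjusted p of 0.05. Nkx2-1, Sox6 and Satb1 were named after their values were seen.

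Receptors for the peptides of these cells and partners of Nos1 and Htr3a made a further list of 18 genes, of which 14 were tested. Sstr5, Npy4r, Cckar and Htr3b had at most 4 counts in any library and did not pass the filter. At an unadjusted p under 0.05, 5 were lower and 1 higher, beside 3.0% and 4.89% of all records, with a median log2 change of -0.10 over the list, and 0 passed the adjusted threshold. Npy1r, a receptor for neuropeptide Y on granule and other neurons, averaged 8.57 ± 1.01 in sham and 6.69 ± 0.867 CPM in injured rats (SD, n = 5 each), differing by -0.35 on the log2 scale (SE 0.114, edgeR adjusted p = 0.487). Npy2r and Npy5r had log2 changes of -0.58 and -0.29, Sstr1 of -0.49, and the other somatostatin receptors tested from -0.10 to -0.06. The TBI values of Npy2r, 4.46 to 6.07 CPM, all lay within its sham range of 2.87 to 11.2 CPM (two-sided exact permutation p = 0.238). Npy2r, Npy5r and those other somatostatin receptors are named beyond the 4 of smallest p. Of the receptors for vasoactive intestinal peptide, Vipr1 had a log2 change of -0.28 and Vipr2 of 0.40. The count past the unadjusted threshold was 6 in all, but 2 or 3 without sham replicate 1, 2 or 3 or TBI replicate 1, 4 or 5, 2 with the ribosomal RNA covariate and 3 when sham replicates 4 and 5 were dropped. With total count scaling 0 were lower and 2 higher, while 16.9% of all records were past the threshold, nearly all higher.

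**Figure D3:**
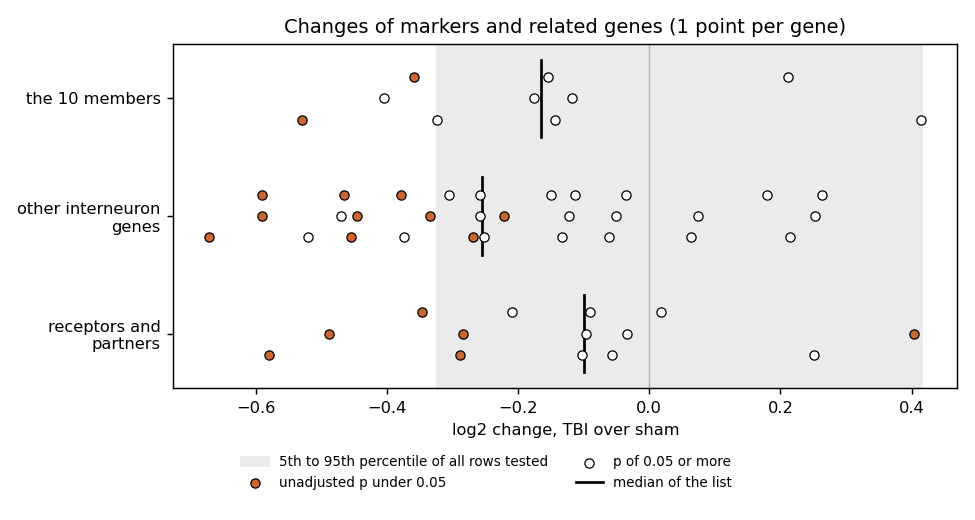
Log2 change, TBI over sham (horizontal axis), of the 10 members, 30 other interneuron genes and 14 receptors and partners, with filled points for an unadjusted p under 0.05, a bar at each list's median and grey from the 5th to the 95th percentile of all records. The medians are -0.16, -0.255 and -0.10.

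Genes of other cell types and genes that every neuron uses were set beside these lists. All 7 pan-neuronal genes were tested, with log2 changes from -0.19 to 0.08, a median of -0.06 and 0 at an unadjusted p under 0.05. The 4 CA3 genes had a median log2 change of 0.05. The 4 tested granule cell genes were all lower, with a median of -0.28 and 0 at that threshold. The 4 CA1 genes were all higher, with a median of 1.14 and 2 at that threshold, and the 4 choroid plexus genes were all higher, with a median of 0.43 and 1 at that threshold. The summed CA1 genes ran from 46.7 CPM in TBI replicate 4, below every sham rat, to 410.5 CPM in TBI replicate 2. Of the 4 astrocyte genes 1 was higher at this threshold, Gfap with a log2 change of 0.83, and of the 4 microglial genes 1, Aif1 with 0.34. In addition 1 mossy cell gene was lower and 1 thalamus gene higher at this threshold, with list medians of -0.11 and -0.03. Among all records 3.0% were lower and 4.89% higher at it. The member Calb2 is also in the mossy cell and thalamus lists, and Calb1 is in the granule cell list and among the other interneuron genes. These lists are thus not fully separate from the genes they are set beside. The part of these cell types in the levels of the markers was not tested.

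The members were next compared with each other. For each of the 45 pairs the correlation of log2 CPM was taken over the 10 rats after the mean of each group was removed, and tested with a two-sided exact permutation within groups over 14400 pairings. After Benjamini-Hochberg adjustment over the 45 pairs 0 passed 0.05, and 5 pairs had an unadjusted p under 0.05, all of them positive. Pairs within the medial eminence made up 4 of the 5, and 15 of the 45. Others of those 15 were negative, with r = -0.42 for Nos1 and Cort and -0.30 for Npy and Nos1. The 4 pairs past 0.05 draw on Sst, Npy, Lhx6 and Pvalb alone, so they are not separate results. How often pairs of other records correlated this much in these libraries was not tested. Sst went with Npy (r = 0.82, exact permutation p = 0.00562, adjusted p = 0.219, and rho = 0.81, exact permutation p = 0.0235). Sst also went with Lhx6 (r = 0.76, exact permutation p = 0.0223, and rho = 0.70, exact permutation p = 0.0389) and with Pvalb (r = 0.72, exact permutation p = 0.0304, and rho = 0.68, exact permutation p = 0.0265), both with an adjusted p from 0.334 to 0.342. Pvalb and Lhx6 had r = 0.69 (exact permutation p = 0.0429, adjusted p = 0.386) and rho = 0.63 (exact permutation p = 0.0846). With the 2 rats farthest from the median of Sst left out for the first and second pair, and of Pvalb for the others, r was 0.67, 0.77, 0.71 and 0.76 for these 4 pairs. With sham replicates 4 and 5 dropped instead, r was 0.81, 0.85, 0.81 and 0.68.

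The remaining pair was Calb2 and Htr3a (r = 0.87, exact permutation p = 0.00972, adjusted p = 0.219, and rho = 0.70, exact permutation p = 0.0405). With the 2 farthest rats left out, sham replicate 1 and TBI replicate 5, r was 0.79. Cck had r = 0.69 with Calb2, and r = 0.38 without sham replicate 1. Across the lineages Sst had r = 0.08 with Cck, -0.25 with Htr3a, -0.01 with Vip and 0.20 with Calb2. The value of Sst with Htr3a depended on single rats, with r = 0.83 without sham replicate 5 and TBI replicate 3 and r = -0.52 without sham replicate 1. Other pairs across the lineages ran from r = -0.29 for Npy and Vip to 0.54 for Pvalb and Calb2. Cort and Cck had r = 0.53, and Lhx6 and Calb2 had r = 0.52, so positive values were not limited to pairs within a lineage. Nos1, which shares the cAMP response element with Sst in the promoter window, had r = -0.26 with Sst (exact permutation p = 0.568). When single rats were dropped this r ran from -0.47, without TBI replicate 3, to 0.03. The part of the element in this value was not tested. The rats of a pair share their library and its scaling, so these values describe how the levels varied together in these samples.

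**Figure D4:**
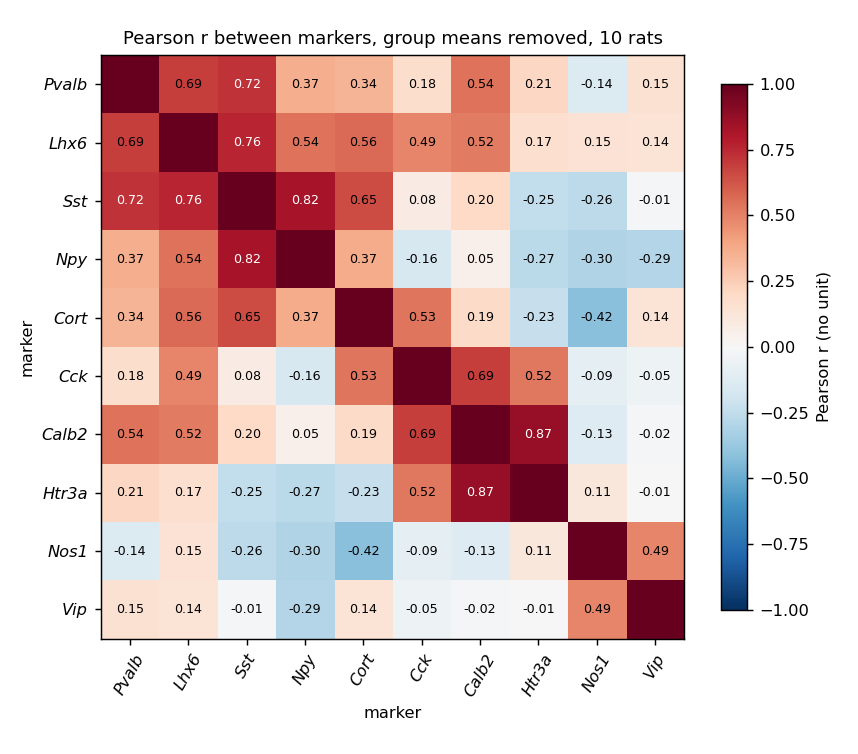
Pearson r of log2 CPM between each pair of markers over 10 rats after removal of the group means, with the markers ordered by hand so that correlated genes are adjacent. Sst has r = 0.82 with Npy and 0.76 with Lhx6, and Calb2 has r = 0.87 with Htr3a.

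Some rats were extreme in several members. Sham replicate 1 was the highest of all 10 rats in 6 of the 10 members. TBI replicates 3 and 5 were each the highest injured rat in 4 members, and TBI replicate 1 the lowest injured rat in 4. In log2 units from the mean of the injured rats TBI replicate 1 was at -0.56 for Sst, -0.58 for Npy and -0.37 for Lhx6, and TBI replicate 3 at 0.57, 0.52 and 0.35.

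**Figure D5:**
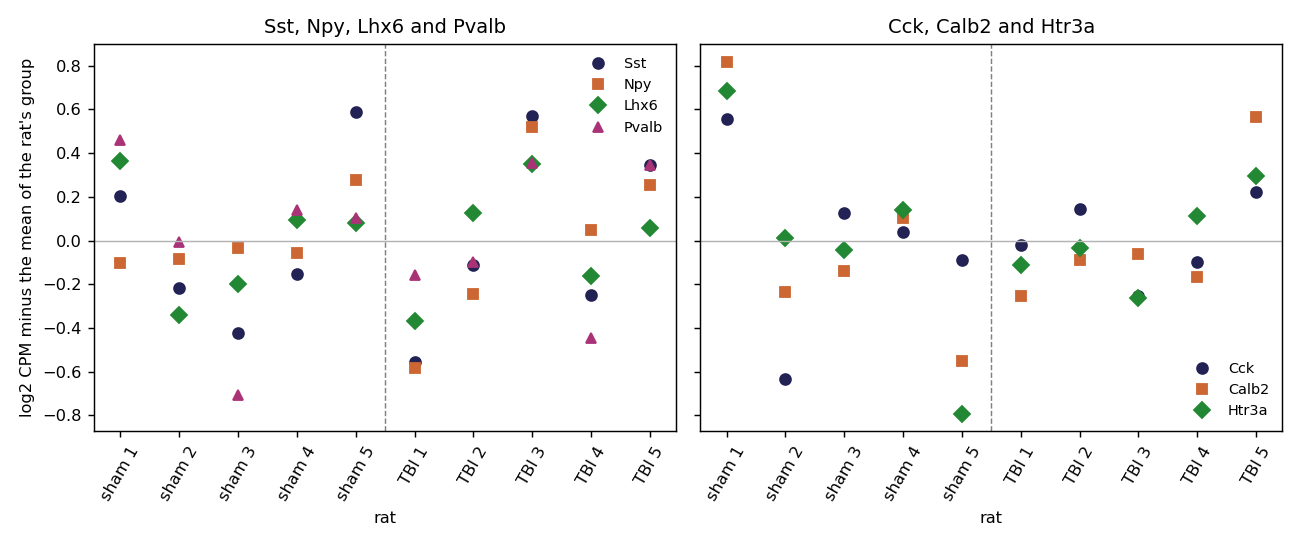
Log2 CPM of 4 medial eminence markers (left) and of Cck, Calb2 and Htr3a (right) in each rat, minus the mean of the rat's group, with the groups divided by the dashed line. In TBI replicate 1 Sst, Npy, Lhx6 and Pvalb are all below 0 and in TBI replicate 3 all above it.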

How the data were processed

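Per the study's methods, single reads of 36 bases from poly-A selected RNA were aligned with BWA to rat genome RN4. The authors deposited unnormalised read counts, with a row for each RefSeq RNA and 1 column per rat, while their methods name Ensembl transcripts as the counted regions. Strand use in counting was not given in the sources used here. An empty row and the unmapped reads (12.8% to 26.1% of a library) were left out. Symbols came from RefSeq genes of GRCr8, used for names only, and matched 54.2% of records.

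Records with a total of at least 44 counts, the 30th percentile, were kept. TBI and sham rats were compared with edgeR 4.0.16 in R 4.3.3 (TMM, robust quasi-likelihood F test), with Benjamini-Hochberg adjustment over all 22431 records. Standard errors are the log2 change over the square root of F. Exact permutation tests have a smallest p of 0.00794. Correlations used log2 CPM with a prior count of 2. DESeq2 1.42.0, limma 3.58.1, other scalings, filters, covariates and left-out rats were alternatives. The test was tested on simulated counts with 200 changed records. At an adjusted p under 0.05 it called 160 of them for a log2 change of 1 and 65 for one of 0.5. It also called 7 and 4 unchanged records. The simulated records were drawn independently of each other, and in the real counts 0% of records passed. These shares therefore need not hold for the members. All members but Htr3a changed by less than 0.5. The members and gene lists were chosen with earlier results of these data known. All members are named, with the 4 genes of smallest p in each further list and some others where stated.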

Additional observations from a re-analysis of the deposited data

Results flagged for a closer look

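In 20 groups of 5 rats, the 10 members in sham and in TBI, 2 held an extreme rat whose gap to its nearest neighbour was above 0.71 of the group's range, the Dixon limit at 95%, where chance gives about 1. Npy in sham replicate 5 was 13.6 CPM, and the other sham rats were at 10.4 to 10.9 CPM. That library is 1 of the 2 rich in ribosomal RNA. Calb2 in TBI replicate 5 was 5.98 CPM, and the other injured rats were at 3.36 to 3.84 CPM. With ribosomal RNA share as a covariate the log2 change was -0.07 for Npy and -0.42 for Calb2, against -0.12 and -0.14 without it. The part of the low granule cell genes of that injured rat was not tested.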

How the results depend on the processing

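The number of members past an adjusted p of 0.05 was 0 under every alternative but 1, and over those the smallest adjusted p of a member ranged from 0.167 to 0.974 (edgeR, DESeq2 or limma). The exception was without sham 3 and TBI 3 together, where 1 member passed, Pvalb at a log2 change of -0.64 (edgeR quasi-likelihood adjusted p = 0.0456). That alternative was chosen after seeing the data, and with it Htr3a was at -0.51 and no longer past an unadjusted p of 0.05. It leaves out the sham rat with the lowest Pvalb and the injured rat with the highest, which by itself widens the Pvalb difference. With it 11.6% of all records were past an unadjusted p of 0.05, against 7.89% in the main test. That share was 11.4% without sham replicate 3 alone and 8.93% without TBI replicate 3 alone. The number past an unadjusted p of 0.05 was 2 in the main test, 1 with ribosomal RNA share as a covariate, 1 when sham replicates 4 and 5 were dropped, and 1 to 3 when single rats were dropped. It was 1 without TBI replicate 1, 3 or 4, and without sham replicate 1, where both lower members were lost and the member past it was Cck, higher. With total count scaling it was 2, but these were Cck and Cort, both higher, while 16.9% of all records were past it. That scaling also turned the log2 changes of Pvalb (0.14), Sst (0.26), Npy (0.42), Nos1 (0.31), Lhx6 (0.18), Vip (0.31) and Calb2 (0.35). With single rats dropped Npy ranged from -0.26 to 0.00584, the latter without TBI replicate 1, and Calb2 from -0.32 to 0.15. Of 240 log2 changes under alternatives 9 had the other sign. DESeq2 gave 3 members past the unadjusted threshold, with Pvalb added. No member pair passed its adjusted threshold under any alternative. Replicate numbers follow sample order and pair no rats. Counts as low as 14 limit Cort, and those under 30 also Vip and Htr3a.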
